A study of Mus musculus with 3 samples.

Results

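In the TA muscle of C57/BL6 mice, 5388 autosomal regions carried a called H3K27ac peak in the 10-month library and none in the 2-month or the 20-month library. They were found by merging the peaks of the 3 lists wherever they overlapped or touched on chromosomes 1 to 19 and keeping the regions built from 10-month peaks alone. This gave 5388 of 51147 merged regions (10.5%), or 5388 of the 33429 regions with a 10-month peak (16.1%, 95% interval 15.7% to 16.5%, exact binomial here and below, for counting error only). Each of these regions consisted of 1 peak, and together they covered 1.67 Mb. By comparison, 12669 regions (24.8%) had a peak only at 20 months, 17304 at 10 and 20 months only, and 10526 at all ages. The regions were chosen by the presence or absence of a call in the 3 lists, so their counts, levels, and distances to peaks of the other ages are descriptions and not tests of age.

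H3K27ac, an acetylation of lysine on the tail of histone H3, is deposited by the acetyltransferases p300 and CBP and marks promoters and enhancers in use. It is read by bromodomain proteins that help recruit the transcription machinery, and distal enhancers differ more between cell types and states than promoters do. The TA lies at the front of the shin and is built mainly of fast fibers. Its chromatin comes from myofibers and from satellite cells, fibroblasts, vessels, and immune cells, so that fewer cells of a type and less of the mark per cell cannot be told apart in these data.

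The study asked how the mark changes as muscle ages. ChIP-seq with an H3K27ac antibody (Abcam ab4729) was done on TA muscle of C57/BL6 mice that were 2, 10, or 20 months old. Each age is represented by 1 library, with no treatment or transgene named, and neither the sex nor the number of animals given in the labels. The extraction text in the labels speaks of activated satellite cells and of RNA, and the tissue named here rests on the tissue label. The methods give the middle age as 10 to 12 months. With 1 library per age there is no replicate, and no p-value is given. Marker loci of muscle were not analysed here, since the only gene positions used on mm9, the build of the files, were those of 84 extracellular matrix (ECM) genes.

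In order of age, the lists held 17884, 35221, and 44752 peaks. Depths recovered from the lists were about 15.9, 18.9, and 26.3 M reads in the same order. The 2-month library stood apart from the others. Its local background equalled the genome mean at 78.3% of its peaks, against 2.87% and 4.89% at 10 and 20 months, and it held 76 peaks on chromosome Y against 1 at each later age. Where background lay above the mean, it was a whole number of reads per 10 kb (within 0.05 reads) at 100% of the peaks of both later ages but at 3.38% at 2 months. Whether the 2-month peaks were called with other settings is not given in the sources used here, and every value that uses them carries this limit. Leaving out the 2-month list, 5599 regions had a 10-month peak and no 20-month peak, which was 16.7% of the 10-month regions, so most of the rule rests on the comparison of 10 with 20 months.

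The level of each peak was taken as the number of reads covering its summit, which the deposited fold and −log10 p determine together, and was set against the genome-wide mean of that library (2.24 reads at 10 months). The regions with a peak only at 10 months had 10 to 76 reads at the summit, with a median of 23 and quartiles of 18 and 31. This was 4.46 to 33.9 times the genome mean, with a median of 10.3 times, or 1.22 RPM (reads scaled to the library). Regions with a peak at 10 and 20 months only had a median of 32 reads (14.3 times) in the same library, and regions with a peak at all ages 52 reads (23.2 times). The regions with a peak only at 10 months were therefore among the low summits of the list but overlapped the others widely. In all, 1193 of them (22.1%) lay above the median summit of the regions at 10 and 20 months, and 125 (2.32%) above that of the regions at all ages.

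**Figure D1:**
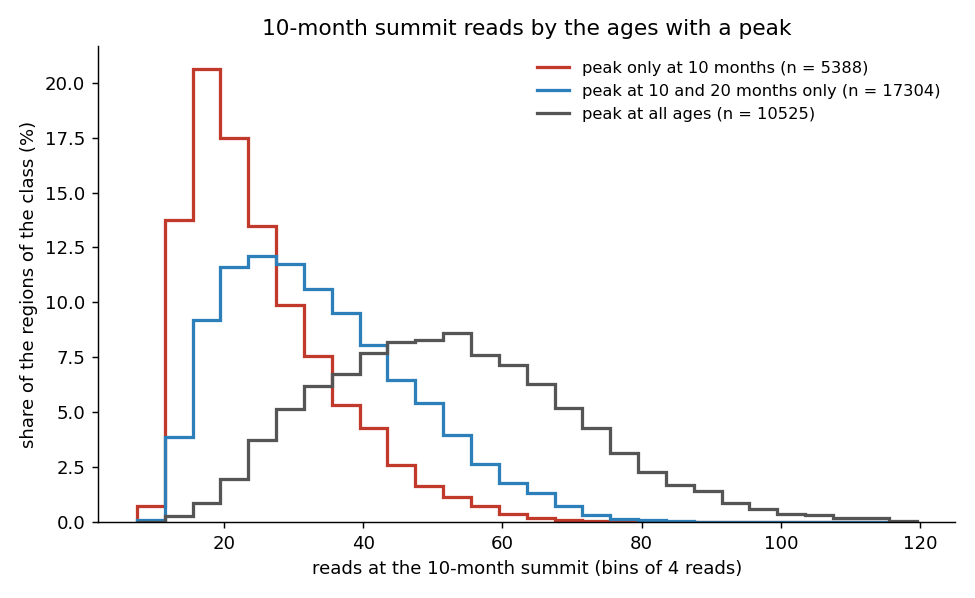
The number of reads at the 10-month summit (x axis, bins of 4 reads) is plotted as a share of the regions of each class in % (y axis) for regions with a peak only at 10 months (red), at 10 and 20 months only (blue), and at all ages (gray). The medians are 23, 32, and 52 reads. The axis ends at 119 reads and leaves out 2 blue and 52 gray regions.

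The regions with a peak only at 10 months were 222 to 980 bp wide, with a median of 283 bp. Of them, 649 had the smallest width in the list. The other classes are merged from peaks of several lists, which widens them, so their widths are not a like comparison. The median was 502 bp for regions at 10 and 20 months and 751 bp for those at all ages. The median −log10 q, the evidence of each call after correction, was 5.33, 8.39, and 16.8 in the same order. The local background, read here as the reads in the 10 kb around the peak because its values were whole numbers of them, had a median of 2.45 times the genome mean (247 reads) against 2.95 and 4.09 times in the other classes.

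The share of 10-month regions without a peak at another age fell with the level of the summit. When the 33429 regions were put into 10 bins by summit coverage, the lowest bin (4.46 to 8.03 times the mean) held 1631 such regions of 3565 (45.8%, 44.1% to 47.4%). The highest bin (29.0 to 197 times) held 18 of 3162 (0.569%, 0.338% to 0.898%). By local background the share went from 32.6% in the lowest bin to 9.40% in the highest. These are shares of calls, which depend on depth and threshold as well as on the mark.

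**Figure D2:**
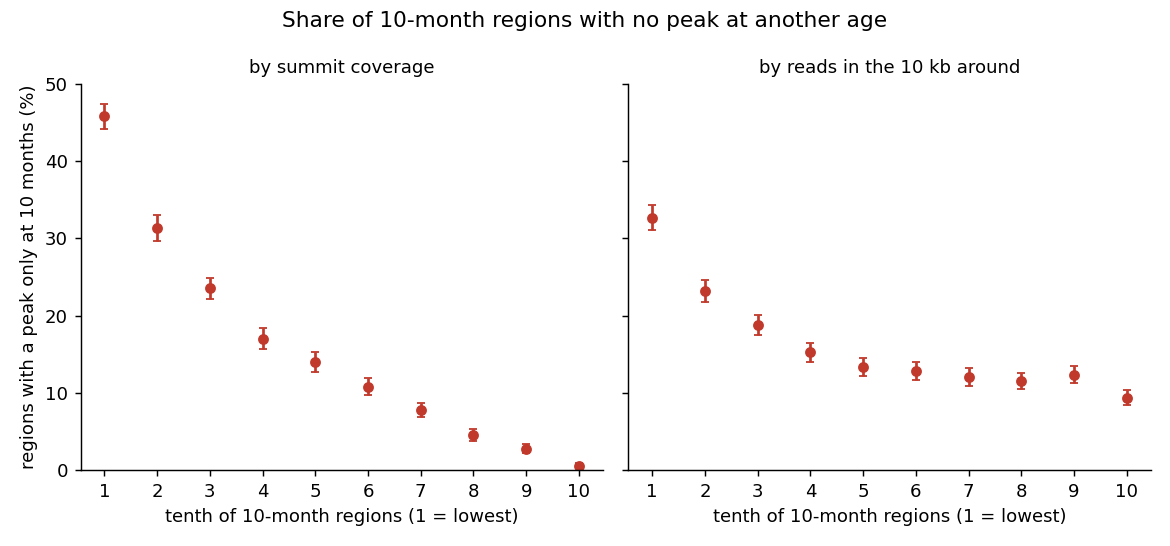
The share of 10-month regions with a peak only at 10 months (y axis, %, with exact 95% intervals for counting error) is plotted over 10 bins of these regions by summit coverage (left) and by the local 10 kb background (right). It falls from 45.8% to 0.569% over the bins of summit coverage and from 32.6% to 9.40% over those of background.

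The highest summits stood in regions of dense signal. At 20 times the genome mean or more, 334 of these regions had a median background of 8.55 times the mean, against 5.33 times in the 10651 other 10-month regions of that level. The highest summit of all, at chr7:137738823-137739233 (mm9), had 76 reads (exact Poisson 95% interval 59.9 to 95.1) or 33.9 times the mean, with 1598 reads in its 10 kb. A 20-month peak lay 137 bp and a 2-month peak 51 bp from its edge. The sixth highest, at chr7:137735676-137735998, had 69 reads and lay in the same stretch of chromosome 7, so that these peaks share much of their 10 kb window.

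Between these came chr2:152732696-152732999 with 75 reads, chr12:74509009-74509257 with 72 reads, and chr7:135682666-135682945 and chr10:80134643-80134952 with 70 reads each. A 20-month peak lay within 0.27 to 4.63 kb of each. The other regions of the highest 10 were chr17:56400978-56401291 and chr9:43878406-43878676 with 68 reads each, and chr5:112229385-112229795 and chr11:100832154-100832435 with 67 reads each. Of these 4 regions, the 20-month peak was nearest at chr17 (72 bp) and farthest at chr11 (307 bp). So each of the 10 highest summits had a 20-month peak within 5 kb, outside its own edges, against 2863 of all 5388 regions (53.1%).

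How far the missing call limits the level at 20 months was calculated from the p threshold of that list. A summit of the same multiple of the genome mean over the same multiple of background would have reached the smallest −log10 p of the 20-month list (4.12) in 5388 of the 5388 regions. The median need was 17 reads, and the median at an equal level was 25. That all 5388 passed follows largely from the calculation and is not evidence of a lower level at 20 months. Each of these summits had already passed the threshold of the 10-month list. The 20-month list had a lower smallest −log10 p, and its library had a higher genome-wide mean of reads. In the shallower 2-month library, with its background set to the genome mean and its settings not known, 4833 (89.7%) would have passed, and in the reverse direction 98.4% of the regions with a peak only at 20 months would have passed at 10 months. A call also needs a minimum width, so reaching the threshold at the summit is necessary for a call and does not by itself give one.

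The highest summit that would stay under the 20-month p threshold, divided by the 10-month level, had a median of 0.663 over the regions (quartiles 0.597 and 0.730, range 0.310 to 0.931). This limit is one of the p threshold alone, since a higher but narrow summit can also go uncalled. For 263 regions (4.88%) this limit lay under 0.5. When the counting error of the 10-month reads and of the 20-month reads at this limit was added, the upper bound of the ratio stayed under 1 in 364 regions (6.76%). With a stricter threshold, the 5% point of −log10 p in the 20-month list, the median was 0.806, with 136 ratios over 1 and a largest of 1.16. Then 57 regions (1.06%) kept an upper bound under 1. With the background of the nearest 20-month summit, which 2863 regions had within 5 kb, the median was 0.644 and 513 (17.9%) did. For most of the regions a level as high at 20 months as at 10 months therefore lay within counting error of the missing call.

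**Figure D3:**
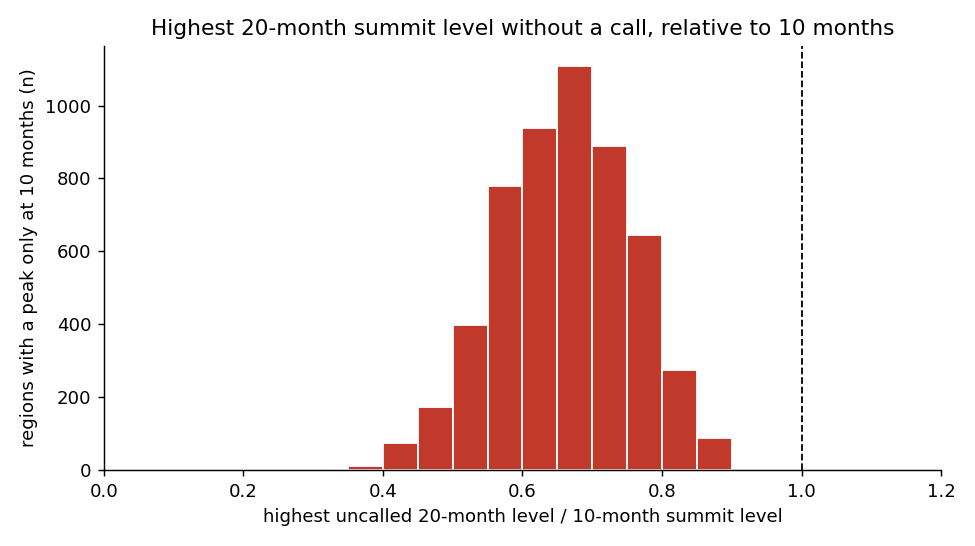
The highest summit level under the p threshold at 20 months is plotted relative to the level at 10 months (x axis, a ratio of multiples of the genome mean) over the 5388 regions (y axis, number of regions in bins of 0.05). The dashed line marks an equal level. The median is 0.663, and the ratios lie between 0.310 and 0.931, without counting error. That none passes 1 follows largely from the calculation, which uses no 20-month reads at these regions.

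The evidence for most calls was in the weaker part of the 10-month list. Of the 17264 autosomal peaks in the 50% of the list with the smallest q, 367 (2.13%) were peaks of these regions, and the other 5021 regions (93.2%) lay outside it. The 367 regions had 19 to 70 reads at the summit (median 33, 14.7 times the mean) against a median of 22 reads in the others. Their limit at 20 months had a median of 0.505, and 327 of them (89.1%) had an upper bound under 1. Both values follow largely from the choice by q, since the limit is calculated from the same 10-month reads and background. No 20-month reads at these regions enter it, so they do not show a fall. Of the 367, 196 (53.4%, 48.2% to 58.6%) had a 20-month peak within 1 kb, against 43.0% (41.7% to 44.4%) of the others.

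Of the 5 regions with the lowest limits, 3 are given here, chosen after their values were seen. At chr1:122471511-122471771 there were 26 reads (17.0 to 38.1) with the background at the genome mean, and a 20-month summit of up to 9 reads would stay under the p threshold. The ratio was 0.310 with an upper bound of 0.683, and the nearest 20-month peak was 182 kb away. At chr5:60434152-60434384 there were 24 reads (15.4 to 35.7), also over a background at the genome mean, with a ratio of 0.336 and an upper bound of 0.748. The nearest 20-month peak to this region was 2325 kb away, the farthest of these examples. A higher summit, at chr13:108564157-108564831, had 53 reads (39.7 to 69.3) over 3.25 times the mean, a ratio of 0.338, and an upper bound of 0.575. These 3 regions kept an upper bound under 1 with the stricter threshold (0.849, 0.931, and 0.669).

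Many of the regions lay beside a 20-month peak that did not overlap them. The gap to the nearest 20-month peak was at most 500 bp for 1925 regions (35.7%), at most 1 kb for 2357 (43.7%, 42.4% to 45.1%), and at most 10 kb for 3638 (67.5%). The last share was 38.6% with lists of equal length and 41.2% when peaks up to 1 kb apart were merged. Gaps between these sizes were few, with 177 regions at 1 to 2 kb and 97 at 3 to 4 kb, and they became more frequent again at 5 to 6 kb (183 regions). The background window reaches 5 kb to either side of a peak, and its part in this pattern was not tested. The median gap was 3.66 kb. To the nearest 2-month peak it was 36.6 kb, with 513 regions (9.52%) within 1 kb. Of the regions with a peak only at 20 months, 33.6% (32.8% to 34.5%) lay within 1 kb of a 10-month peak, so neighbouring calls were common in both directions.

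The neighbours within 500 bp were mostly part of regions seen at both later ages. For 896 of the 1925 regions (46.5%) the nearest 20-month peak belonged to a region with peaks at 10 and 20 months, and for 256 (13.3%) to one with peaks at all ages. For 731 (38.0%) it was itself a peak only at 20 months, so that the call at one age stood next to the call at the other without overlap. In 93 cases (4.83%) 20-month peaks lay within 500 bp on both sides.

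Measured between summits, the nearest 20-month summit was within 1000 bp for 2113 regions, at a median of 575 bp. Of these, 1466 (69.4%) were at 300 to 700 bp. Only 6 were under 200 bp, the closest at 111 bp. The lack of short distances follows largely from the rule, which leaves out any region that a 20-month peak overlaps or touches. It is not read as a shift of summits between ages. The summit at 20 months had 1.02 times the coverage of the 10-month summit beside it (median over 2113 pairs, quartiles 0.860 and 1.25), both as multiples of the genome mean, and was the higher in 1103 pairs. The 10 kb background at the 20-month summit was 0.934 times that at the 10-month summit (quartiles 0.849 and 1.02) and higher at 20 months in 30.4% of the pairs. In regions with a peak at 10 and 20 months only the same ratio was 0.959 with 35.7% higher, and in regions with a peak at all ages 0.984 with 43.1% higher. These ratios are not set against each other, since the first compares windows around different summits, of which the 10-month one was chosen for its call, and the others compare windows within 1 region.

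**Figure D4:**
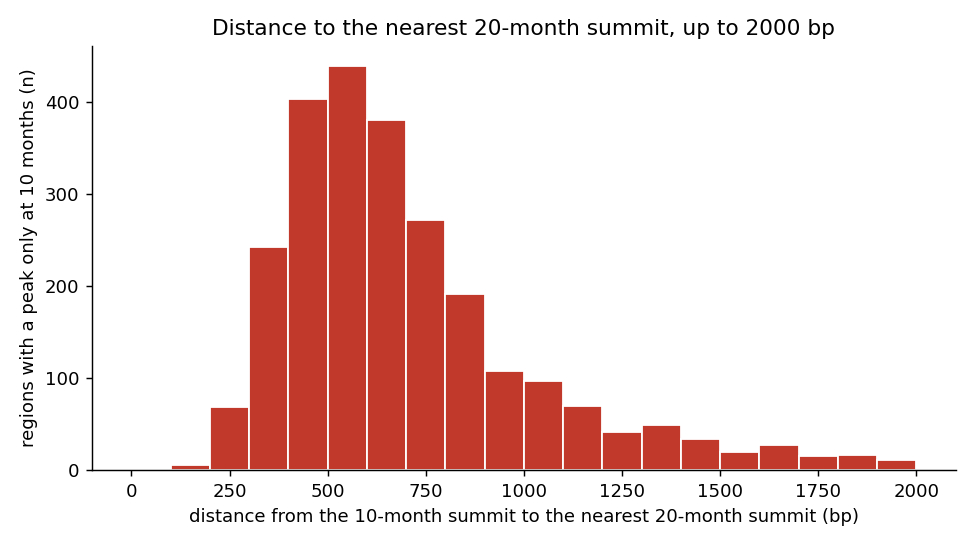
The distance from the 10-month summit to the nearest 20-month summit is plotted in bins of 100 bp up to 2000 bp (x axis) for the regions with a peak only at 10 months (y axis, number of regions). Most nearby summits lie between 300 and 700 bp, and 6 are under 200 bp. The lack of short distances follows largely from the rule, since no 20-month peak may overlap or touch these regions.

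Position, summit level, and local background went together. A call needs more summit reads over a higher background, and the part of this in the order was not tested. The 2426 regions (45.0%) within 1 kb of a peak of another age had a median of 27 reads (12.0 times the mean) over a background of 3.21 times the mean. The 1258 regions at 1 to 10 kb had 24 reads (10.7 times) over a background of 2.79 times the mean. The 1554 at 10 to 100 kb had 18 reads (8.03 times) over 1.63 times. The 150 regions (2.78%) over 100 kb from every other peak of the 2- and 20-month lists had 11 to 37 reads with a median of 16 (7.14 times). Their median background was 1.28 times the mean. For 44 of the 150 (29.3%) the background was at the genome mean, against 311 of all 5388 (5.77%). Regions with a peak only at 20 months showed a like order at their own age, from 11.6 times the mean within 1 kb to 6.79 times over 100 kb.

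Among the remote regions the highest summit was at chr14:71334042-71334348, with 37 reads (26.1 to 51.0) or 16.5 times the mean, 153 kb from the nearest 20-month peak. The region at chr4:30736650-30736904 had 34 reads, 15.2 times the mean, and was the most isolated of the highest 5, at 481 kb from a 20-month and 1314 kb from a 2-month peak. At chr13:68932449-68932980 the summit had 33 reads and lay 151 kb from a 20-month peak. The other 2 of the highest 5 were a pair, chr16:7271806-7272200 with 35 reads and chr16:7271008-7271438 with 31 reads. They stood side by side about 121 kb and 120 kb from the nearest 20-month peak and shared their background (501 and 500 reads in 10 kb). For each of these 5 the upper bound of the limit at 20 months was over 1 (1.10 to 1.35).

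The 5 widest regions were of different kinds. The widest, at chr19:45304092-45305071 (980 bp), had 59 reads or 26.3 times the mean, in a stretch of 888 reads per 10 kb with a 20-month peak 921 bp away. At chr7:52240017-52240924 (908 bp) there were 43 reads, and the 20-month peak was 336 bp away. At chr4:48768003-48768875 (873 bp) there were 29 reads, with a 20-month peak at 246 bp. The remaining ones stood alone. These were chr14:73029679-73030558 (880 bp, 21 reads, 26.3 kb from a 20-month peak) and chr10:36302824-36303646 (823 bp, 39 reads, 24.7 kb). The last of them had the lowest limit of the 5, a ratio of 0.505 with an upper bound of 0.873.

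At the edge of the rule, a few base pairs decided membership. The 144 regions with a peak of another age within 50 bp had 11 to 61 reads with a median of 24 (10.7 times the mean). The 136 regions at 10 and 20 months whose peaks shared at most 50 bp had 11 to 54 reads with a median of 21 (9.36 times). Just inside and just outside the rule the 10-month summits were of similar height, with overlapping ranges.

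The regions lay on every autosome. As a share of the 10-month regions, they were most frequent on chromosome 13 (259 of 1370, 18.9%, 16.9% to 21.1%) and least on chromosome 11 (361 of 2698, 13.4%, 12.1% to 14.7%). As these chromosomes were picked as the extremes of all autosomes, their shares and intervals describe them only. The median summit was 23 reads on chromosome 13 and 24 on chromosome 11. Another of these regions lay within 10 kb for 16.3% of them, and the median gap between neighbours was 56.0 kb. They fell into 1554 bins of 1 Mb, 408 of which held a single one. There were 46 bins with 10 or more, which held 515 regions (9.56%).

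The bin with the most was chr13:110 to 111 Mb, where 16 of 35 10-month regions (45.7%, 28.8% to 63.4%) had no peak at another age. Their summits ran from 13 to 56 reads, and 6 had a 20-month peak within 1 kb. On chr9:75 to 76 Mb it was 14 of 27 (51.9%, 31.9% to 71.3%), at 15 to 44 reads. The next 5 bins held 13 each and tied for the remaining places. Of these, chr9:77 to 78 Mb (13 of 41) and chr19:40 to 41 Mb (13 of 36) also had a high share. In contrast, chr7:52 to 53 Mb (13 of 93), chr10:80 to 81 Mb (13 of 99), and chr15:76 to 77 Mb (13 of 71) were dense in 10-month peaks, with shares of 14.0%, 13.1%, and 18.3% against 16.1% over all autosomes. As the bins were picked for their counts, these values describe them only.

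The genes that could be placed on the files' build were those of an ECM list given with the study. How the list was made is not given in the sources used here, and it is not taken as independent evidence. The ECM is the network of collagens, laminins, and glycoproteins around muscle fibers. Integrins tie cells to it, metalloproteinases cleave it, and TIMPs inhibit these enzymes. Its excess is called fibrosis. A region was called distal when the nearest ECM TSS was over 2.5 kb but no farther than 100 kb from its edge. There were 46 distal regions with a peak only at 10 months, at 28 of the 83 autosomal genes, and 2 within 2.5 kb of a TSS. The distal number depends on the threshold, with 14 regions at 12 genes when each list was reduced to the 50% of peaks with the best q and 21 at 17 genes with lists of equal length. This was 0.854% (0.626% to 1.14%) of the 5388 regions, against 0.971% of the regions at 10 and 20 months, 1.13% of those at all ages, and 1.00% of those only at 20 months. The intervals of these shares overlap. The 2 regions near a TSS were 0.0371% (0.00450% to 0.134%) of the 5388, against 0.0925% (0.0529% to 0.150%) of the regions at 10 and 20 months, 0.134% (0.0782% to 0.215%) of those only at 20 months, and 0.200% (0.124% to 0.305%) of those at all ages. Of the 335 distal ECM regions with a 10-month peak the 46 made up 13.7% (10.2% to 17.9%), against 16.1% of all 10-month regions.

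The distal ECM regions resembled the rest in level. They had 12 to 39 reads at the summit with a median of 20.5 (9.14 times the mean). Of the 46, 15 (32.6%) had a 20-month peak within 1 kb, against 43.7% of all 5388 regions. The limit of their level at 20 months had a median of 0.669 (0.428 to 0.814). The upper bound was under 1 in 2 of them, against 364 of all 5388 (6.76%). They were split evenly, 23 upstream and 23 downstream of the TSS, and 15 lay inside the ECM gene itself.

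**Figure D5:**
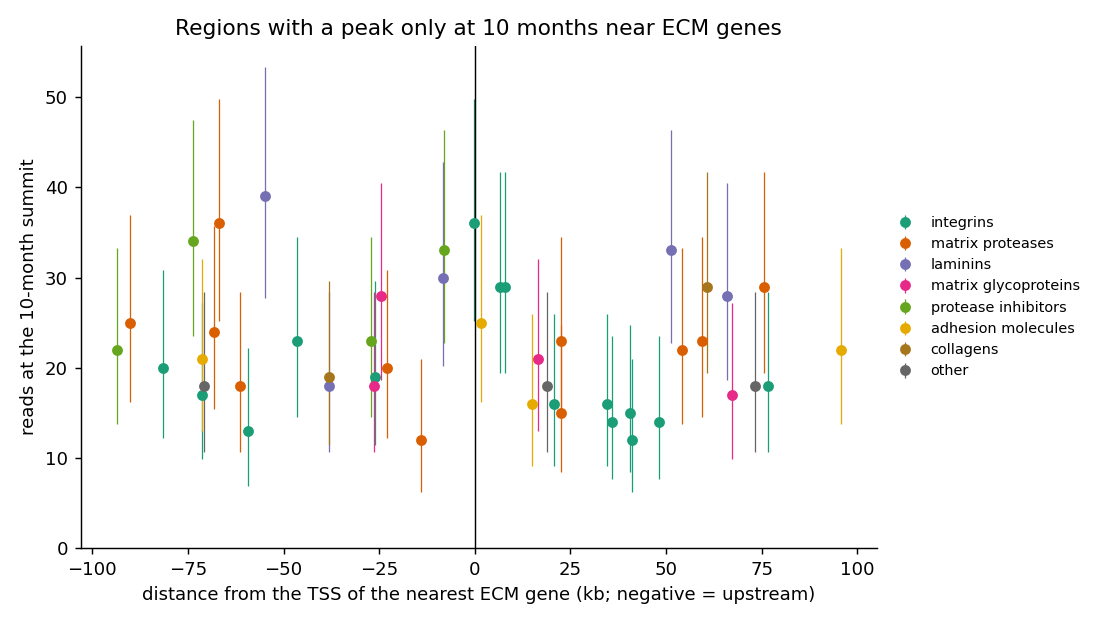
For each of the 48 regions near an ECM gene, the reads at the 10-month summit (y axis, with exact Poisson 95% intervals for counting error) are plotted over the distance from the TSS in kb (x axis, negative upstream), colored by gene family. The summits run from 12 to 39 reads with no visible trend over distance, and 2 regions lie within 2.5 kb of a TSS.

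Among the cell-surface receptors, 14 of the 84 distal 10-month regions of integrin genes (16.7%, 9.42% to 26.4%) had a called peak only at 10 months, at 7 of 13 genes. For this and the families below, the share to compare was 13.7% over all distal ECM regions and 16.1% over all 10-month regions. *Itgae*, which encodes the αE chain of leukocytes, a chain that binds E-cadherin in epithelia, had 4 of its 12 distal 10-month regions in this class. Their summits had 12, 14, 15, and 17 reads and were among the lowest of the 46 distal ECM regions of this class. *Itga5*, the fibronectin receptor α5, had 3 of 8, with 29 reads at 6.50 kb and 29 reads at 7.98 kb inside the gene and 18 reads at 76.6 kb downstream. *Itga2*, a collagen receptor chain, had 2 of 2, with 14 and 16 reads, and 1 distal 20-month region elsewhere. *Itgb2*, the β chain of the leukocyte integrins, had 2 of 15, with 16 reads inside the gene and 20 reads at 81.5 kb upstream. *Itgam*, *Itgav*, and *Itgb3* had 1 each, with 23, 13, and 19 reads.

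Of the 2 regions within 2.5 kb of an ECM TSS, 1 lay upstream of *Itga5*. This region with a peak only at 10 months was at chr15:103197390-103197631 (mm9), with its edge 168 bp upstream of the TSS, 36 reads at the summit (25.2 to 49.8), and 16.1 times the mean. A 2-month peak lay 153 bp and a 20-month peak 418 bp away, so the mark was called near this promoter at every age, and the upper bound of the limit at 20 months was 1.07. The promoter sequence is shown because *Itga5* is the one ECM gene with such a region less than 250 bp upstream of its TSS. It is the RefSeq window from 250 bases before to 50 after the start, on GRCm38.p6 at chr15:103366742-103367041, minus strand, printed 5′ to 3′ with each CG in capitals. The files' build is another one, and the match of the start between builds was not examined.
Itga5: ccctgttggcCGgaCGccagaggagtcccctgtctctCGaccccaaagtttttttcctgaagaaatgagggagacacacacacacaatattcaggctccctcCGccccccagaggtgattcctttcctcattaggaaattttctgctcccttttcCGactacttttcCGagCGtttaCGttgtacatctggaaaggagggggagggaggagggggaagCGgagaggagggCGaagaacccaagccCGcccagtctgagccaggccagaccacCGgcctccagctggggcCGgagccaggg
The window held 13 CG, and 37.9% of 32851 RefSeq promoter windows of this length held as many or more. Of 4 motifs searched on both strands, GGGCGG was found 2 times, both on the reverse strand and each across a CG, and 35.7% of all windows held it. TATAAA (13.6% of all windows), TGANTCA (7.81%), and CACGTG (7.15%) were not found in this window. The other region within 2.5 kb of a TSS lay in *Ctnnb1*, which encodes β-catenin, a link of cadherins to the cytoskeleton and the effector of Wnt signaling. It was at chr9:120844323-120844595, 1.63 kb downstream of the TSS and outside the promoter window, with 25 reads (16.2 to 36.9), and a 20-month peak was 157 bp away.

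Of the matrix proteases, 7 of 16 genes had 11 such regions among 58 (19.0%, 9.87% to 31.4%). Over all distal ECM regions the share was 13.7%, and over all 10-month regions 16.1%. *Adamts2*, the enzyme that removes the N-propeptide of fibrillar procollagens, had the most, with 4 of its 9 distal 10-month regions. The highest had 36 reads (25.2 to 49.8) at chr11:50348156-50348585, 67.0 kb upstream, and with a ratio of 0.498 and an upper bound of 0.883 it was 1 of the 2 whose limit stayed under an equal level. A 20-month peak was 364 bp away. The second, 24 reads at 68.3 kb upstream, was its neighbour, and the others had 18 reads at 61.5 kb upstream and 23 reads at 22.5 kb inside the gene. *Adamts2* had no distal region at 2 months and 7 at 20 months.

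*Mmp11* (stromelysin-3) carried the other such region, with 23 reads over 140 reads in 10 kb, 59.5 kb from the TSS, a ratio of 0.428, and an upper bound of 0.915. It was 1 of 9 distal 10-month regions of the gene, and a 20-month peak lay 209 bp away. *Mmp2* (gelatinase A) had 1 distal 10-month region, which was in this class, with 15 reads at 22.7 kb inside the gene, and none at 2 or 20 months. Its upper bound at 20 months was 1.75, so this absence lay within counting error. *Adamts8* had 2 of 7 (20 and 22 reads). *Mmp7* (matrilysin), *Mmp9* (gelatinase B), and *Mmp15*, a membrane-type enzyme, had 1 each, with 12, 25, and 29 reads. Of the inhibitors, *Timp2* had 3 of 10, with 33, 34, and 22 reads at 8.13, 73.6, and 93.6 kb upstream, and *Timp3* had 1 of 4 with 23 reads.

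Laminins, the heterotrimers of the basement membrane, had 5 of 40 distal 10-month regions in this class (12.5%, 4.19% to 26.8%). *Lamc1*, the γ1 chain found in most laminins, had 3 of 12, with 30 reads 8.22 kb upstream and 33 and 28 reads inside the gene. *Lama1* had the highest summit among the 46 distal ECM regions of this class, with 39 reads (27.7 to 53.3) at 54.8 kb upstream. *Lamb2* had 1 region with 18 reads. The collagens had 2 of 19 (10.5%, 1.30% to 33.1%), 1 at *Col5a1* with 19 reads and 1 at *Col6a1* with 29 reads. *Col1a1*, *Col3a1*, and the type IV collagen genes of the list had none.

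The matrix glycoproteins had 4 of 79 (5.06%, 1.40% to 12.5%), the lowest share of the families, although its interval overlaps those of the others. *Thbs2*, an antiangiogenic thrombospondin, had 2 of 4 (18 and 17 reads), *Sparc* 1 of 12 (28 reads), and *Emilin1* 1 of 17 (21 reads). *Thbs3* had none among 18 distal 10-month regions. The adhesion molecules had 3 of 33 (9.09%, 1.92% to 24.3%), namely *Cd44*, the hyaluronan receptor, with 21 reads, *Ctnna1* with 22 reads, and *Vcam1*, the endothelial ligand of α4 integrins, with 16 reads. The region of *Vcam1* was the only distal one of the gene at 10 months, with 2 others at 20 months, 1 of them 312 bp from it. Of the genes outside these families, *Entpd1*, the ectonucleotidase CD39, had 3 of 6 with 18 reads each.

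A distal region was tied to the nearest gene of the ECM list only, and other genes may lie closer. In the RefSeq gene order of GRCm38.p6, in which 29 of these 29 genes were found, *Adamts2* lies between *Rufy1* and *Zfp354c*, *Itgae* between *Ncbp3* and *Haspin*, *Timp2* between *Usp36* and *Cep295nl*, and *Lama1* between *Lrrc30* and *Arhgap28*. *Itga2* is next to *Itga1*, an integrin gene outside the list.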

How the data were processed

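The authors sequenced H3K27ac ChIP DNA of TA muscle and deposited 1 peak list per age. Per the labels' processing notes, reads were aligned to mm9 with Bowtie2 (version not given in the sources used here) and peaks were called with MACS2 2.1.0. Whether a control library was used is not given in the sources used here. The deposited values are positions, a score, the ratio (fold) of summit pileup to local background, and −log10 p and −log10 q. The score was not used for any value.

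The members and gene lists were chosen with earlier results of these data known. Summit reads and background were solved from the deposited fold and −log10 p (tolerance 0.001) with Python 3.11.15, numpy 2.4.6, pandas 2.3.3, and scipy 1.17.1, and plots were drawn with matplotlib 3.10.9. Peaks simulated from the solved values with the same formula gave back the reads for 100% of 5000 peaks per library. This checks the inversion, and not whether the deposited values follow that formula. The later lists each had 1 peak without a solution. Depth is the commonest background times the MACS2 mouse genome size over the smallest peak width. Gaps run between region edges. Distal ECM regions used the TSS positions given with the study for 84 genes. Named were the 10 highest, 5 widest, and 5 highest remote regions, ECM genes with a promoter region, the 10 ECM genes with the most distal regions, the extreme chromosomes, and the 5 fullest 1-Mb bins. Other ECM genes and the lowest limits were named after their values were seen. The limit at 20 months and the values without the 2-month list were added after seeing the data. Alternatives changed thresholds, list lengths, merging, widths, scales, and distances. Neighbours in the RefSeq order are given for some ECM genes, and a result on another is not reported here.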

Additional observations from a re-analysis of the deposited data

Results flagged for a closer look

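Chromosome X lies outside the autosomal comparison. There, 98 of 696 regions with a 10-month peak had no peak at another age (14.1%, 11.6% to 16.9%), with a median of 18.5 reads or 8.25 times the genome mean at the summit. On chromosome Y the 2-month list held 76 peaks against 1 at each later age. The labels give no sex, and the part of this difference in the missing calls at 2 months was not tested.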

How the results depend on the processing

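Of 73 alternative values, 26 were labelled as within the spread set for them and 47 as moved. The label does not mean that a value was stable. With a minimum width of 222 bp, 7352 regions and 68 distal ones counted as within it, against 5388 and 46 in the main setting. When each list was reduced to the 50% of its peaks with the best q, 2195 regions were left (13.0% of 10-month regions), with a median summit of 16.1 times the mean, 0.818 of that at 10 and 20 months. Of these, 48.0% had a 20-month peak and 8.70% another such region within 10 kb, and 14 were distal at 12 ECM genes. With lists of equal length (17884 peaks) the same values were 3147, 18.3%, 16.1 times, 0.857, 38.6%, 11.0%, 21, and 17, and 66.5% would have passed at 20 months at an equal level. Merging peaks up to 500 bp apart gave 3164 regions (12.4%), 9.36 times, 47.3%, 7.96%, and 30 distal ones, and merging up to 1 kb gave 2799 (11.3%), 8.92 times, 41.2%, 5.72%, and 28. A minimum width of 222 bp gave 7352 regions and 68 distal ones at 35 ECM genes, with 22.0%, 10.7 times, a ratio of 0.686, 61.7%, and 21.7%. A stricter threshold for the 10-month list alone left 367 regions. Calling a peak shared only when 50% covered gave 22.2%. In RPM the median summit was 1.22, and against the local background the ratio to regions at 10 and 20 months was 0.891. A 20-month peak lay within 2 kb for 47.0% and within 50 kb for 93.0%, and another such region within 50 kb for 47.0%. With an outer limit of 50 kb 24 distal ECM regions remained. With the background of the nearest 20-month peak 98.9% would have passed, and the median limit was 0.644. Chosen after seeing the data, leaving out the 2-month list gave 16.7%, the 5% point of −log10 p gave a median limit of 0.806, and RPM gave 0.532. The cause of these changes was not tested.

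No paired analysis was possible because each age has 1 library, and no replicate could be left out. Depth limits single regions, since 23 reads at a median summit leave wide counting errors, and intervals cover counting error only. A peak list says nothing of the signal where no peak was called.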
